A study of Mus musculus with 9 samples.

Results

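The 49 genes described here are cell cycle and DNA replication genes, chosen by symbol from the 21868 genes of a mouse jejunum count table. All 49 had enough reads to be among the 14668 genes tested. They fall into 5 G1 cyclins and kinases (Ccnd1, Ccnd2, Ccnd3, Cdk4 and Cdk6), 5 genes of entry into S phase (Ccne1, Ccne2, Cdk2, E2f1 and Myc), the kinase inhibitor gene Cdkn1a, 13 S phase genes and 25 mitotic genes. Mice were given TPN (total parenteral nutrition, commonly feeding by infusion into a vein), starved, or sham treated for 24 h. A 5 cm piece of jejunum then gave 1 bulk RNA-seq library, 3 libraries for each of the TPN, starvation and sham groups. The sources used here do not give strain, sex, age or genotype. Replicates are labelled biological without naming separate mice, so the p-values measure only how these samples spread, which may be a technical spread. In bulk tissue, fewer cells of a type and less RNA per cell cannot be told apart.

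In the cell cycle, D cyclins bind Cdk4 or Cdk6 in G1 and help to release E2F factors, which switch on E-type cyclins and the enzymes that copy DNA. B-type cyclins with Cdk1, the Aurora and Polo kinases and the kinetochore proteins then carry the cell through mitosis, and the anaphase-promoting complex ends it. In the small intestine, dividing stem and progenitor cells lie in the crypts, and villus cells have left the cycle. The protein p21, made from Cdkn1a, holds cyclin-dependent kinases in check and is known in this tissue from cells that leave the cycle.

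S phase and mitotic genes are known to be read through different promoter elements. Promoters are shown for an S phase example (Mcm5), for Cdc20 and Mki67 as mitotic examples, and for Birc5 and Cdk4, which were called in TPN. RefSeq windows on GRCm38.p6, from 250 bases before to 50 bases after the start, were at hand for 37 of the 49 genes, and Ccnd1 is not among them. They were searched on both strands for 4 E2F words (TTCCCGC or TTGGCGC or TTCGCGC or TTGCCGC), 2 words of the cell cycle homology region or CHR (TTTGAA or TTCGAA) and CCAAT. An E2F word lay in 8 of 11 S phase promoters (72.7%), in 3 of 19 mitotic promoters (15.8%) and in 10.9% of all 27025 genes with a promoter. A CHR word lay in 15 of 19 mitotic promoters (78.9%), in 2 of 11 S phase promoters (18.2%) and in 21.7% of all genes. CCAAT lay in 89.5% of the mitotic and 72.7% of the S phase promoters, against 41.1% of all genes. A promoter with both a CHR word and CCAAT was found for 78.9% of the mitotic genes and 8.61% of all genes. These matches are descriptions of letters and were not tested as binding sites. In the lines that follow, written 5′ to 3′ on the gene's own strand, capitals mark the matched words. Mcm5, a helicase subunit gene, holds 3 E2F matches, the last 2 of which overlap. Cdc20, which activates the anaphase-promoting complex, holds a CHR word 18 bases before its start, between 2 CCAAT words. Mki67, the gene of the proliferation antigen Ki-67, holds both kinds of element.
Mcm5 (chr8:75109259-75109558, + strand): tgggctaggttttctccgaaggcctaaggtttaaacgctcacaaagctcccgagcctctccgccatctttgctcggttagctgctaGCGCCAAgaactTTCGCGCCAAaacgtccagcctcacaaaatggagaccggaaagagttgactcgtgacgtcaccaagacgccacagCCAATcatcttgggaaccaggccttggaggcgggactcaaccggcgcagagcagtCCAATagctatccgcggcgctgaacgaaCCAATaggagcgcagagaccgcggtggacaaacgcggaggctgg
Cdc20 (chr4:118437294-118437593, - strand): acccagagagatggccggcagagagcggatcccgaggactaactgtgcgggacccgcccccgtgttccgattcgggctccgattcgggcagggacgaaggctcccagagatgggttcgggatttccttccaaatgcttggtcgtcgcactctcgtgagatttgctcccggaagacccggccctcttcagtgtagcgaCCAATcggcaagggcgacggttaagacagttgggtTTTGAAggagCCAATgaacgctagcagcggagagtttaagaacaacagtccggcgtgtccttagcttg
Mki67 (chr7:135716330-135716629, - strand): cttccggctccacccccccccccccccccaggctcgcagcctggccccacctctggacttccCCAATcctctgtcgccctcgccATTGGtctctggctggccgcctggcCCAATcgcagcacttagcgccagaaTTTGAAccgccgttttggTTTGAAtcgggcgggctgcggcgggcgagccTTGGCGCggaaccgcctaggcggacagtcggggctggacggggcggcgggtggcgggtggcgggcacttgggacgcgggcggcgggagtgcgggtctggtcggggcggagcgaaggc
Birc5 and Cdk4, members that were lower in TPN, have no match. That says only that these letters are not in these windows.
Birc5 (chr11:117848987-117849286, + strand): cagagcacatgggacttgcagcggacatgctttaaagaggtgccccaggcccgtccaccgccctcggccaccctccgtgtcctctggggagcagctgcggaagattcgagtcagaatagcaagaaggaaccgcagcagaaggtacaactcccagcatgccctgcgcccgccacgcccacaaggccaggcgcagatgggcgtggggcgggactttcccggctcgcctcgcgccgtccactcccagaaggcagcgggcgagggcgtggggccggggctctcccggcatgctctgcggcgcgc
Cdk4 (chr10:127063285-127063584, + strand): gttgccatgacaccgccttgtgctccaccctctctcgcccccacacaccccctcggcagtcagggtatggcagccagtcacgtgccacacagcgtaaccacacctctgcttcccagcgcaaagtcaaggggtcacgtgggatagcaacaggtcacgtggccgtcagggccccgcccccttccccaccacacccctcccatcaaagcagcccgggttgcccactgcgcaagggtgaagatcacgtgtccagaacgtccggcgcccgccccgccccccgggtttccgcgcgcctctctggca

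Total counts were 7779877 to 12084278 per library, and 16023 to 16656 genes had a read. Epithelial markers (Epcam, Vil1, Cdh1 and 5 others) all had reads in every library, at a mean of 9.31 to 9.41 log2 CPM (CPM, counts scaled to a common library size with TMM factors) in TPN, 8.97 to 9.86 in starvation and 9.59 to 9.64 in sham. Starvation replicate 3 and sham replicate 2 stood apart from their groups by stem cell, villus tip or smooth muscle markers. Starvation replicate 3 had the lowest stem cell markers, with 212 CPM summed over 8 genes, while starvation replicates 1 and 2 had 906 and 698 CPM. Its villus tip markers were the highest, at a mean of 11.3 log2 CPM, and those of starvation replicates 1 and 2 were at 8.46 and 9.22. Smooth muscle markers stood at 9.51 log2 CPM in sham replicate 2, with 6.28 and 6.47 for sham replicates 1 and 3. B cell markers, which can come from dividing lymphoid cells, summed to 14.7, 39.7 and 85.9 CPM in TPN, to 285, 209 and 6.24 CPM in starvation and to 19.3, 7.68 and 15.9 CPM in sham. The part of these cell types in the results on the 49 genes was not tested.

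**Figure D1:**
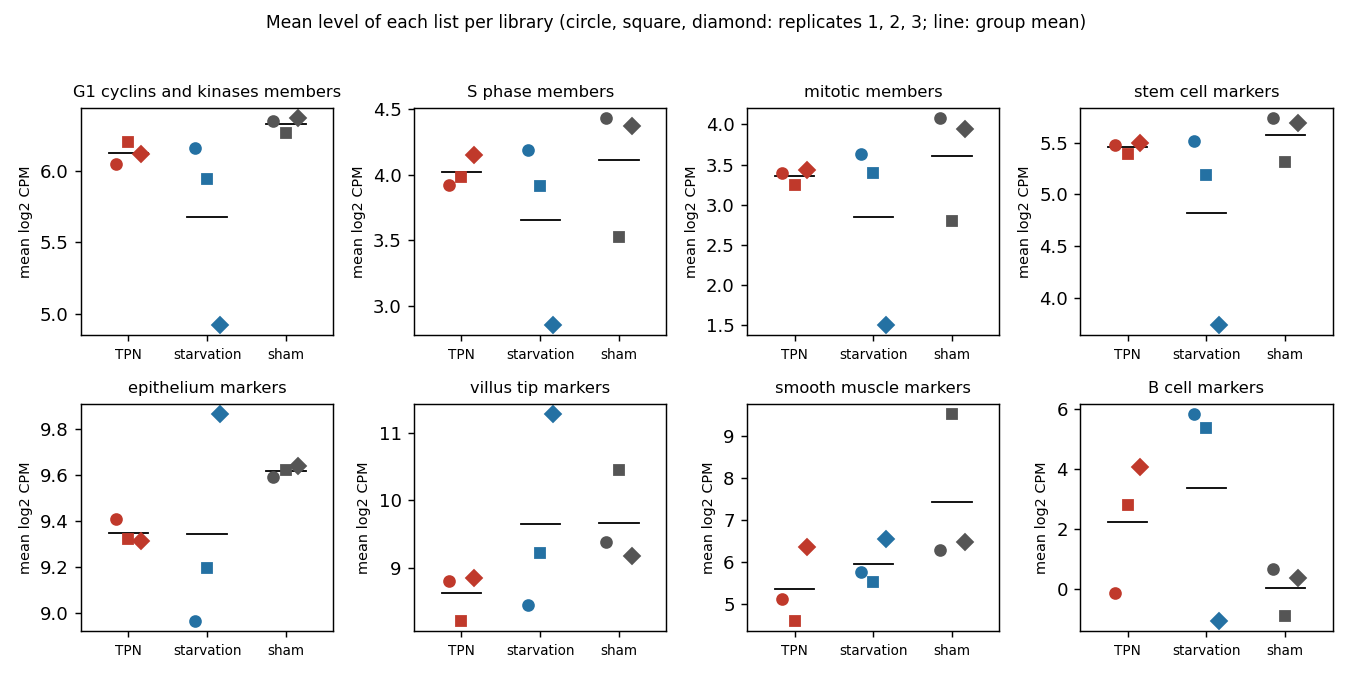
Mean log2 CPM of 3 member classes and 5 marker lists (y axes, each with its own range) in the TPN, starvation and sham libraries (x axis), with 1 symbol per library and a line at the group mean. Starvation replicate 3 was lowest for the G1, S phase, mitotic and stem cell lists and highest for the villus tip list, and sham replicate 2 was highest for smooth muscle.

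The lowest and highest values of the cell cycle genes lay mostly in a few libraries. Starvation replicate 3 held the lowest value of the 9 libraries for 37 of 49 members (75.5%), against 27.9% of all genes tested. Sham replicate 1 held the highest value for 24 members, against 6.63% of all genes, and sham replicate 3 for another 11 (22.4%, against 6.72%). The mean of the 25 mitotic genes, relative to the sham mean, was −0.22, −0.36 and −0.17 log2 units in the TPN libraries. It was 0.03, −0.21 and −2.10 in the starvation libraries and 0.47, −0.81 and 0.34 in the sham libraries. The 3 TPN libraries thus lay close together and inside the range of the sham libraries, while starvation replicate 3 lay far below every other library.

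The level of most members was low in starvation replicate 3. That level divided by the mean of the other starvation libraries had a median of 0.224 over the mitotic genes (range 0 to 0.893), 0.363 over the S phase genes (0.146 to 1.32) and 0.434 over the G1 genes (0.264 to 0.901), so that the classes overlapped. Members that did not share the drop were Pcna (1.04), Cdc6 (1.04), Gins2 (1.32), Ccne2 (1.75) and Cdkn1a (2.45), and Cdk4, Ccnb2, Cdt1 and Birc5 lay between 0.783 and 0.901. In sham replicate 2 the same ratio to the other sham libraries had a median of 0.39 over the mitotic genes, 0.562 over the S phase genes and 0.811 over the G1 genes. Ccne2 (2.05) and Cdkn1a (1.53) were high there too. No test was run on these ratios, since each compares a single library with a pair.

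**Figure D2:**
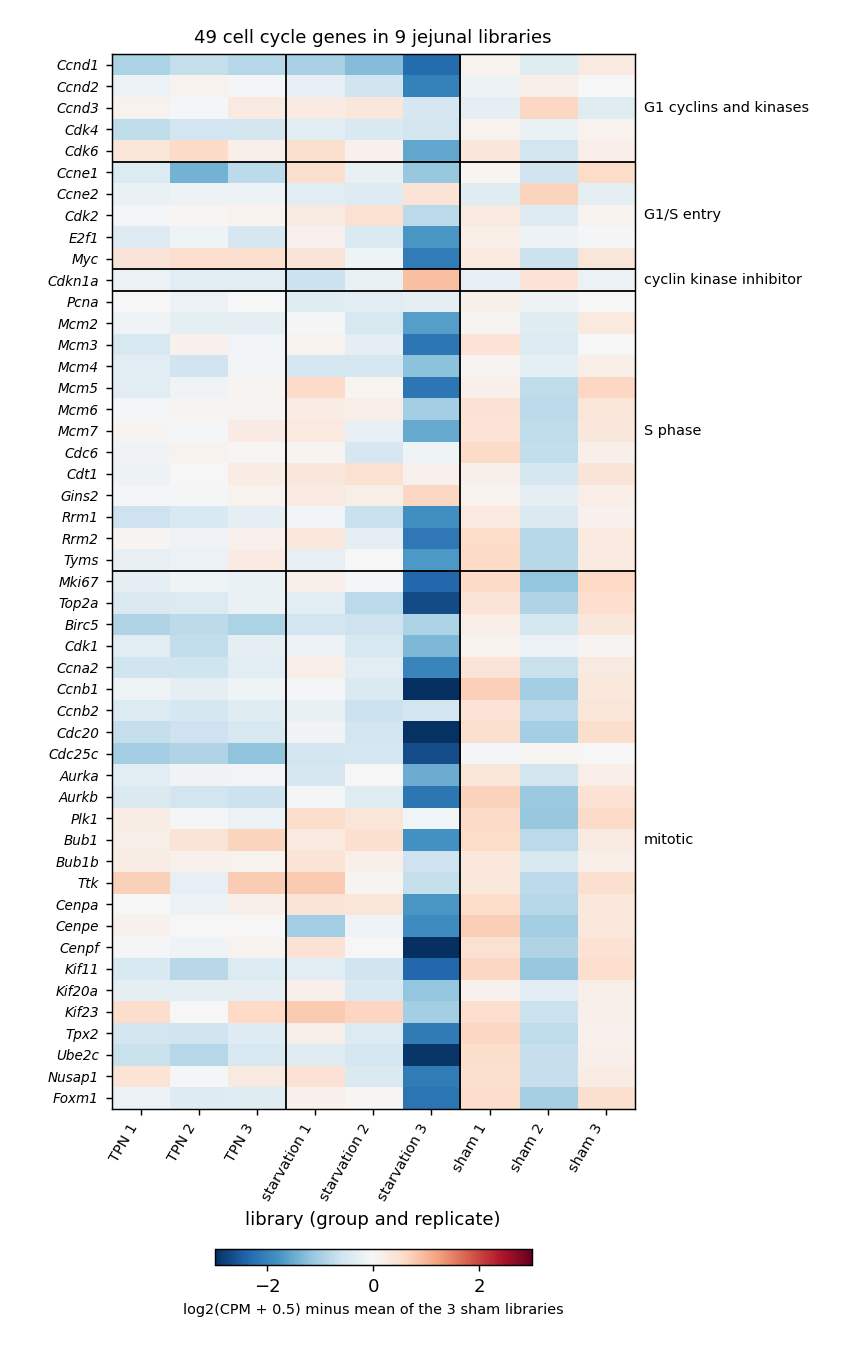
Each cell is log2(CPM + 0.5) of 1 of the 49 genes (rows, grouped by class) in 1 library (columns), minus the mean of the 3 sham libraries. The column of starvation replicate 3 is blue for most genes, with Cdkn1a, Ccne2 and Gins2 as the clearest red exceptions, and the column of sham replicate 2 is pale blue through the S phase and mitotic rows.

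The comparison of TPN with sham addresses feeding from the blood side alone. The kinase gene Cdk4 and the mitotic gene Birc5 fell in TPN, and no member rose. Cdk4 (chr10:127063534-127067920, + strand, GRCm38), the catalytic partner of D cyclins, had 80.5, 91.6 and 92.7 CPM in TPN and 146, 119 and 147 CPM in sham. Every TPN library lay below every sham library, and the log2 fold change was −0.64 ± 0.14 (SE; edgeR quasi-likelihood test, Benjamini-Hochberg adjusted p = 0.026). Birc5 (chr11:117849251-117855743, + strand), which encodes survivin of the chromosomal passenger complex, had 10.5, 11.3 and 10.1 CPM in TPN and 23.1, 13.6 and 25.2 CPM in sham. The groups did not overlap, although sham replicate 2 came close to the TPN range, and the log2 fold change was −0.96 ± 0.25 (adjusted p = 0.0446 by the same test). Members called lower were thus 2 of 49, against 5.12% of all genes, and members called higher were 0 of 49, against 3.48%. Each call was lost in 6 of 9 fits with 1 library left out, and over 22 alternatives Cdk4 lost its call in 11, with a log2 fold change as near 0 as −0.23, and Birc5 in 13. At an unadjusted p under 0.05, 3 of 49 members passed, beside 3939 of the 14668 genes tested. DESeq2 called 3 members lower and 0 higher, beside 1386 and 1035 of all genes. Groups did not overlap for 5 members that were lower and for 1 that was higher, against 21.4% and 21.3% of all genes.

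None of the other G1 members passed in TPN. Ccnd1 (chr7:144929931-144939925, − strand), cyclin D1, had 41.4, 48.9 and 44.5 CPM in TPN and 85.7, 62.6 and 96.3 CPM in sham. Its TPN libraries all lay below the sham libraries, but the log2 fold change of −0.86 ± 0.30 did not pass (adjusted p = 0.103). Ccnd2, cyclin D2, had 199, 242 and 213 CPM in TPN and 200, 251 and 222 CPM in sham, with a log2 fold change of −0.04 ± 0.36 (adjusted p = 0.956). Ccnd3, cyclin D3, had 42.4, 38.2 and 48.0 CPM in TPN and 33.0, 61.1 and 30.8 CPM in sham, so that sham replicate 2 lay above and the other sham libraries below every TPN library. Its log2 fold change was 0.05 ± 0.30 (adjusted p = 0.937). Whether the changes of the 3 D cyclins differed from each other was not tested.

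**Figure D3:**
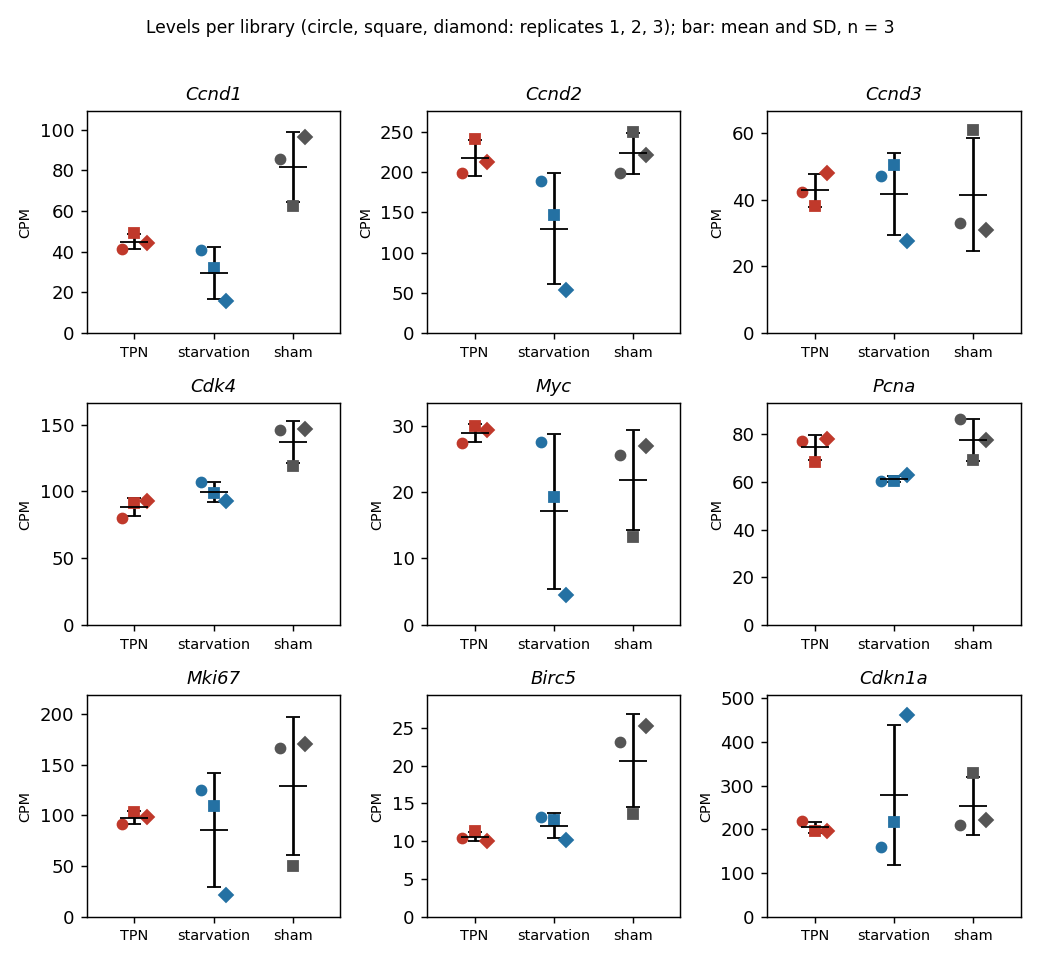
CPM per library (y axes from 0) of 9 members in the TPN, starvation and sham groups (x axis), with circles, squares and diamonds for replicates 1, 2 and 3 and bars for the mean and SD (n = 3). Ccnd1, Cdk4 and Birc5 lie lower in TPN and starvation than in sham, and Mki67 shows the low values of starvation replicate 3 (21.6 CPM) and sham replicate 2 (50 CPM).

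At the entry into S phase, Myc, a growth-promoting transcription factor, was the member with higher, non-overlapping TPN libraries. It had 27.4, 29.9 and 29.4 CPM in TPN and 25.5, 13.2 and 26.9 CPM in sham, and its log2 fold change of 0.40 ± 0.51 did not pass (adjusted p = 0.646). Ccne1, cyclin E1, had 3.38, 1.43 and 2.48 CPM in TPN and 4.91, 2.88 and 6.99 CPM in sham, and the groups overlapped at a log2 fold change of −1.01 ± 0.54 (adjusted p = 0.261). E2f1, an activator of S phase genes, had a log2 fold change of −0.36 ± 0.43 (adjusted p = 0.62). Cdkn1a had 220, 198 and 198 CPM in TPN and 210, 330 and 222 CPM in sham, with a log2 fold change of −0.31 ± 0.36 (adjusted p = 0.612). None of these 4 genes passed the test.

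No S phase gene passed in TPN against sham, also at an unadjusted p under 0.05. Pcna, the sliding clamp of DNA polymerase, had 77.1, 68.5 and 78.1 CPM in TPN and 86.5, 69.1 and 77.6 CPM in sham, a log2 fold change of −0.06 ± 0.13 (adjusted p = 0.794). Mcm4, a subunit of the replicative helicase, had 13.2, 10.96 and 15.9 CPM in TPN and 17.9, 13.6 and 19.6 CPM in sham, with a log2 fold change of −0.35 ± 0.26 (adjusted p = 0.415). Rrm1, the large subunit of ribonucleotide reductase, had a log2 fold change of −0.49 ± 0.39 (adjusted p = 0.453). The S phase log2 fold changes ran from −0.49 to 0.01 with a median of −0.10, and 12 of 13 were below 0. That median turned positive with library totals, with epithelium scaling and without sham replicate 1 (0.07, 0.29 and 0.04).

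Of the 25 mitotic genes, 20 had a log2 fold change below 0 in TPN against sham, with a median of −0.40 against −0.02 over all genes. Cdc25c, a phosphatase that activates Cdk1, had 1.07, 1.19 and 0.88 CPM in TPN and 2.55, 2.77 and 2.66 CPM in sham. The groups did not overlap, and at these low counts the log2 fold change was −1.34 ± 0.78 (adjusted p = 0.301). Mki67 had 91.1, 104 and 98.3 CPM in TPN and 166, 50 and 170 CPM in sham. The TPN libraries lay between sham replicate 2 and the other sham libraries, and the log2 fold change was −0.40 ± 0.59 (adjusted p = 0.695). Over all 49 members the median was −0.23, with 39 below 0. With epithelium scaling, which moved the median of all genes by 0.41, the members' median became 0.17, and it stayed below that of all genes by 0.22.

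The comparison of starvation with sham addresses the lack of nutrients from either side. This comparison uses the same 3 sham libraries as TPN against sham. Ccnd1 was the member that fell: it had 40.8, 32.2 and 15.8 CPM in starvation and 85.7, 62.6 and 96.3 CPM in sham. Every starvation library lay below every sham library, and the log2 fold change was −1.46 ± 0.30 (edgeR quasi-likelihood test, adjusted p = 0.0359). Members called lower were 1 of 49, against 1.14% of all genes, and members called higher were 0 of 49, against 2.55%. At an unadjusted p under 0.05, 5 of 49 members passed, beside 3430 of the 14668 genes tested. DESeq2 called 4 members lower and 0 higher, beside 657 and 997 of all genes. Groups did not overlap for 8 members that were lower and for 0 that were higher, against 11.2% and 13.9% of all genes. Without starvation replicate 3, Ccnd1 was again the only call, but leaving out sham replicate 1 or 3, any TPN replicate or starvation replicate 2 ended it, as did 11 of 22 alternatives in all.

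Cdk4 and Birc5 stood lower in starvation too, without passing. Cdk4 had 107, 98.6 and 92.7 CPM in starvation, below its 3 sham values, and a log2 fold change of −0.46 ± 0.14 (adjusted p = 0.0953). Birc5 had 13.2, 12.8 and 10.2 CPM in starvation, again below all 3 sham values, and a log2 fold change of −0.78 ± 0.25 (adjusted p = 0.109). Ccnd2 had 189, 147 and 53.9 CPM in starvation, all below the sham libraries and widely spread, and a log2 fold change of −0.79 ± 0.37 (adjusted p = 0.228). Ccnd3 had 47.3, 50.4 and 27.6 CPM, of which replicate 3 lay below the sham range, and a log2 fold change of 0.01 ± 0.30 (adjusted p = 0.993). Among the G1 members, Ccnd1 thus had the lowest log2 fold change of this comparison.

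Pcna and Mcm4 were the S phase members with the smallest p in starvation. Pcna had 60.4, 60.6 and 62.9 CPM in starvation, a narrow range below all sham libraries, and a log2 fold change of −0.34 ± 0.13 (adjusted p = 0.148). Mcm4 had 11.6, 11.5 and 6.94 CPM in starvation, also below all sham libraries, and a log2 fold change of −0.76 ± 0.26 (adjusted p = 0.129). The S phase median was −0.40, but −0.13 without starvation replicate 3 and 0.01 with epithelium scaling. Gins2, a subunit of the GINS part of the helicase, had a positive value, with 78.6, 73.9 and 101 CPM in starvation and 70.0, 53.1 and 75.6 CPM in sham (log2 fold change 0.35 ± 0.17, adjusted p = 0.251). Its exons share 67.3% of their length with Gse1 on the opposite strand, so the reads of that pair cannot be told apart.

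The mitotic genes had a median log2 fold change of −0.60 in starvation, with 21 of 25 below 0, and 0 mitotic genes passed (1 at an unadjusted p under 0.05). Top2a, the topoisomerase that untangles chromosomes, had 36.9, 26.7 and 6.94 CPM in starvation and 61.8, 25.1 and 66.8 CPM in sham, with a log2 fold change of −1.12 ± 0.52 (adjusted p = 0.23). Mki67 had 125, 109 and 21.6 CPM in starvation, a range that overlaps the sham libraries, and a log2 fold change of −0.59 ± 0.59 (adjusted p = 0.574). Without starvation replicate 3 the mitotic median was −0.23, above the G1 median of −0.44, and the median of all members was −0.17 in place of −0.51. Cdc25c was listed at 0 reads in starvation replicate 3, which allows up to 3 reads, or 0.347 CPM, and it had 1.67 and 1.69 CPM in the other starvation libraries. Stem cell markers had a median log2 fold change of −0.60 in starvation, and −0.27 without starvation replicate 3.

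Entry genes and the inhibitor showed no change that passed in starvation. Myc had 27.6, 19.2 and 4.51 CPM in starvation, where replicate 3 lay below every other library (log2 fold change −0.35 ± 0.51, adjusted p = 0.717). E2f1 had 9.33, 6.22 and 2.20 CPM in starvation and 9.81, 7.67 and 8.24 CPM in sham (log2 fold change −0.52 ± 0.43, adjusted p = 0.488). Cdkn1a had 160, 218 and 462 CPM in starvation, from the lowest to the highest of all 9 libraries, and a log2 fold change of 0.14 ± 0.36 (adjusted p = 0.845). Without starvation replicate 3 that log2 fold change was −0.45, so the sign for Cdkn1a rested on this library.

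TPN and starvation, which differ in the nutrients given into the blood, were set against each other, and no member passed by edgeR, by DESeq2 or at an unadjusted p under 0.05. Over all genes, 3384 of 14668 had an unadjusted p under 0.05, and DESeq2 called 1099 lower and 692 higher. Members called lower or higher were 0 of 49 each, against 3.9% and 1.94% of all genes. Groups did not overlap for 2 members that were lower and 4 that were higher in TPN, against 18.3% and 15.3% of all genes. Pcna (log2 fold change 0.28 ± 0.13, adjusted p = 0.217), Ccnd1 (0.60 ± 0.30, adjusted p = 0.273), Ccnd2 (0.75 ± 0.37, adjusted p = 0.258) and Cenpe (0.96 ± 0.55, adjusted p = 0.341) were the 4 higher ones. Cenpe, a kinetochore motor, had 7.58, 6.91 and 6.80 CPM in TPN and 3.11, 6.33 and 1.503 CPM in starvation. Gins2 (−0.35 ± 0.17, adjusted p = 0.257) and Cdk4 (−0.17 ± 0.14, adjusted p = 0.494) were the 2 lower ones. Members whose groups overlapped included Mcm4 (0.41 ± 0.26, adjusted p = 0.39), Myc (0.75 ± 0.51, adjusted p = 0.421), Ccne1 (−0.79 ± 0.54, adjusted p = 0.423), Cdkn1a (−0.45 ± 0.36, adjusted p = 0.492) and Top2a (0.64 ± 0.52, adjusted p = 0.498). The members' median was 0.18, with 36 above 0, and it was −0.09 without starvation replicate 3.

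Because sham replicate 2 and starvation replicate 3 stood apart from their groups, each comparison was refitted without this pair. TPN replicate 2, starvation replicate 1 and sham replicate 1, the highest of their groups in pancreatic acinar markers, were kept. That leaves 2 libraries in each of those groups, and the choice was made with earlier results known. TPN against sham then had 18 members lower and 1 higher, against 14.8% and 15.0% of all genes. The lower ones included 14 of 25 mitotic genes and 1 of 13 S phase genes, Rrm1 (log2 fold change −0.63 ± 0.19, adjusted p = 0.0346). The mitotic median was −0.68, against 0.07 over all genes, and the S phase median was −0.36. The log2 fold changes among the lower ones were −0.74 ± 0.11 for Mki67, −1.09 ± 0.15 for Cdc20, −1.10 ± 0.16 for Kif11, the spindle motor that pushes the poles apart, −1.11 ± 0.17 for Aurkb, the kinase partner of survivin, and −0.78 ± 0.13 for Foxm1, a transcription factor of mitotic genes. The left-out sham replicate 2 lay below every TPN library for each of these 5 genes, as for Mki67 with 91.1 to 104 CPM in TPN and 50 CPM in that sham library. It did so for 11 of the 18 lower members, 11 of the 14 mitotic ones and 33 of all 49. For those 11 lower members the call rests on leaving it out and is no support of its own. Their log2 fold changes were below 0 with all 9 libraries, from −0.78 (Cdc20) to −0.18 (Plk1), but none of them passed there. Sham replicate 2 lay inside the TPN range for Rrm1, Ube2c and Ccne1 (13.3, 11.6 and 2.88 CPM). The calls of Rrm1, Ube2c and Ccne1, too, were made only without the pair. Bub1, Bub1b and Ttk, genes of the spindle checkpoint, did not pass (0.07 ± 0.33, −0.06 ± 0.25 and 0.16 ± 0.45). In the same fit 3 of 8 stem cell markers were lower, and 3 of 8 epithelial markers were lower and 1 higher.

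Starvation against sham without the pair had 14 members lower and 1 higher, against 9.0% and 10.9% of all genes. The lower ones included 10 of 25 mitotic genes, with log2 fold changes of −0.52 ± 0.12 for Mki67, −0.83 ± 0.17 for Cdc20 and −1.04 ± 0.18 for Kif11. The mitotic median was −0.50. Pcna (−0.44 ± 0.10, adjusted p = 0.0196) and Mcm4 (−0.70 ± 0.19, adjusted p = 0.0337) were the S phase members that fell. Sham replicate 2 lay below both remaining starvation libraries for 9 of the 14 lower members, Mki67, Cdc20 and Kif11 among them, and for 34 of all 49. Here too the call of those 9 rests on leaving it out. With all 9 libraries their log2 fold changes were below 0, from −1.12 (Top2a) to −0.59 (Mki67), but none of them passed. Those values include the low starvation replicate 3 (21.6 CPM for Mki67) and are no separate support. Without that library alone, the median of the 25 mitotic genes was −0.23. In the same fit 2 of 8 stem cell, 5 of 8 epithelial and 5 of 6 Paneth cell markers were lower, and 5 of 5 B cell and 4 of 4 germinal centre B cell markers were higher. The part of these cell types in the result was not tested.

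The G1 members split without the pair. Ccnd1 fell in TPN (−0.98 ± 0.12, adjusted p = 5.49e-04) and in starvation (−1.31 ± 0.14, adjusted p = 8.83e-04). Cdk4 fell in both as well (−0.69 ± 0.10, adjusted p = 0.00119, in TPN, and −0.50 ± 0.11, adjusted p = 0.0147, in starvation). Ccnd3 rose in both (0.47 ± 0.11, adjusted p = 0.0129, in TPN, and 0.62 ± 0.12, adjusted p = 0.00976, in starvation), with the highest sham value of this gene, 61.1 CPM, left out. Its lowest starvation value, 27.6 CPM in starvation replicate 3, was left out as well. With all 9 libraries the Ccnd3 log2 fold changes were 0.05 ± 0.30 in TPN and 0.01 ± 0.30 in starvation, so both calls rest on leaving the pair out. Ccnd2 and Cdk6 did not pass in either. TPN against starvation had 1 member lower, Plk1 (−0.40 ± 0.13, adjusted p = 0.0489), a mitotic kinase, and 1 higher, Pcna (0.34 ± 0.10, adjusted p = 0.033), against 11.5% and 10.1% of all genes. For Plk1, the left-out starvation replicate 3 had 24.2 CPM, inside the TPN range of 22.6 to 30.0 CPM. With all 9 libraries the Plk1 log2 fold change was −0.28 ± 0.39 and did not pass. Leaving out either library alone gave fewer calls. TPN against sham had 2 members lower without sham replicate 2, beside 597 of 14939 genes, and 4 without starvation replicate 3, beside 1705 of 14947 genes. Starvation against sham had 2 and 1 members lower, beside 99 and 794 genes. Members higher were 0 in each fit, beside 351 and 1477 genes in TPN and 164 and 945 in starvation.

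**Figure D4:**
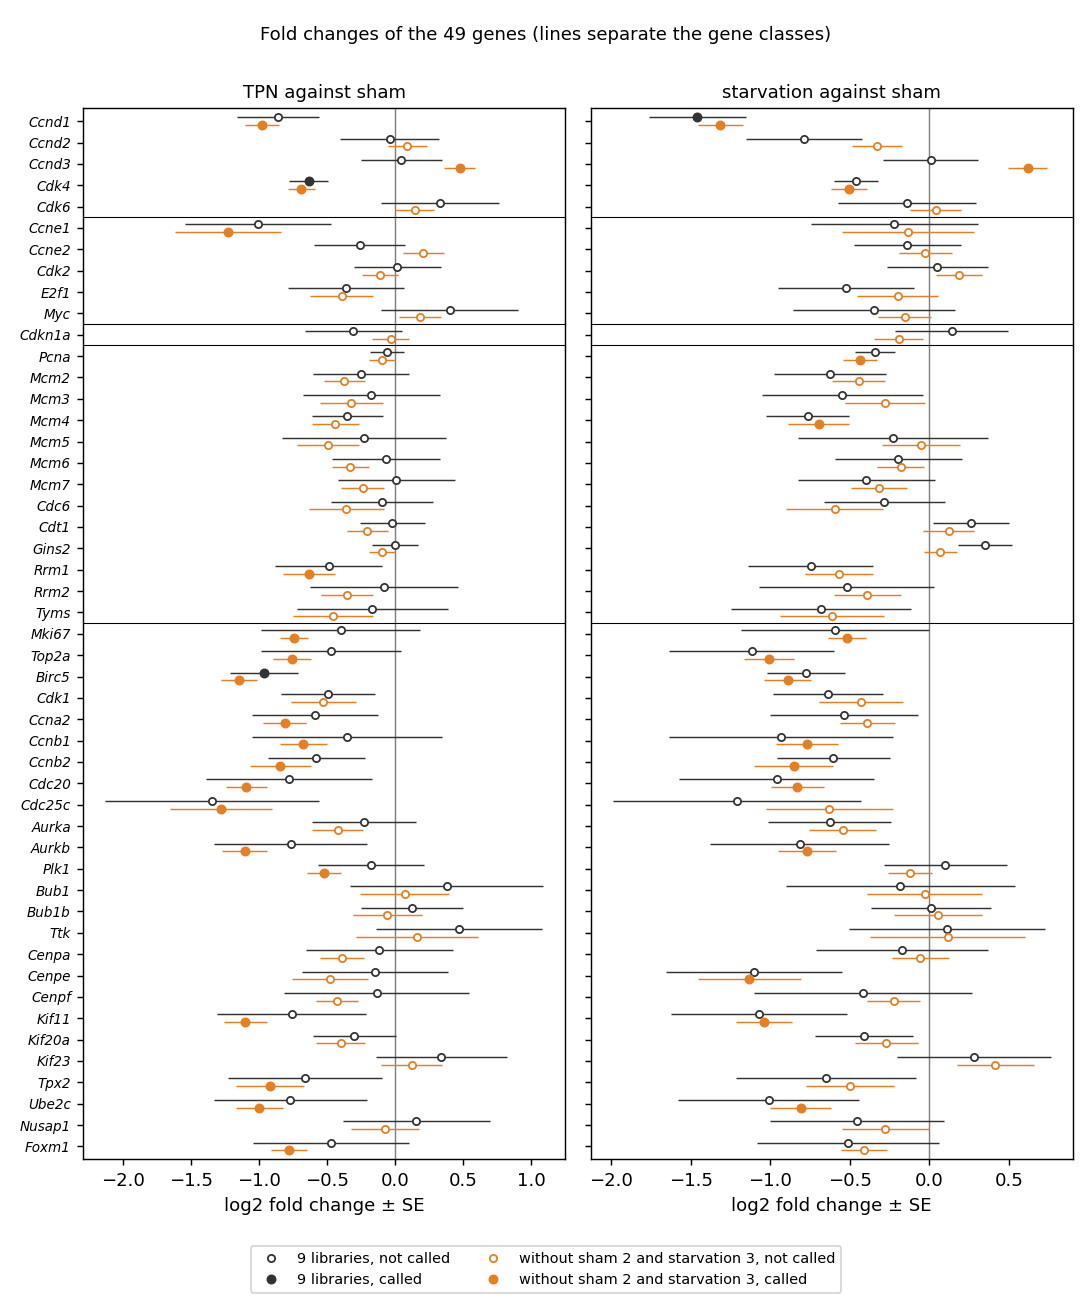
Log2 fold changes with their SE (x axes) of the 49 genes (rows, lines between classes) for TPN against sham and starvation against sham, from all 9 libraries (dark) and without sham replicate 2 and starvation replicate 3 (orange). Filled points passed an adjusted p of 0.05: 2 dark and 19 orange points in TPN, and 1 dark and 15 orange points in starvation, mostly among the mitotic genes.

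Levels per kilobase of exon ordered the members within a class. In TPN, Cdk4 had 27.2 ± 2.08 CPM per kb (SD, n = 3) and Cdk6, the other partner of D cyclins, 3.25 ± 0.475. Among the D cyclins, TPN libraries had 23.1 ± 2.32 CPM per kb of Ccnd2, 9.55 ± 0.80 of Ccnd1 and 4.89 ± 0.56 of Ccnd3. Sham libraries had 23.8 ± 2.71, 17.3 ± 3.67 and 4.74 ± 1.93 CPM per kb of the same genes, so that the order Ccnd2, Ccnd1, Ccnd3 held in both. Starvation libraries had 13.8 ± 7.33 of Ccnd2, 6.29 ± 2.69 of Ccnd1 and 4.76 ± 1.41 of Ccnd3. The helicase genes Mcm2 to Mcm7 act as a ring of equal parts, and their sham levels ran from 2.84 ± 1.17 (Mcm6) to 6.87 ± 2.70 CPM per kb (Mcm7). Next to Mcm7 stood Mcm4 (4.75 ± 0.85), and neighbours in the order of the 6 genes differed by less than the sum of their SDs. Pcna stood far above them, with 31.1 ± 2.20 in TPN, 25.6 ± 0.57 in starvation and 32.4 ± 3.64 CPM per kb in sham.

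Other genes of the same pathways gave few calls. Of 55 other mitotic genes, 0 passed in any comparison, with medians of −0.23 in TPN and −0.41 in starvation against sham. An unadjusted p under 0.05 was found for 2 and 4 of them, beside 3939 and 3430 of the 14668 genes tested. Of 39 other control genes, Mxi1, a Myc antagonist, fell in TPN (−1.67 ± 0.25, adjusted p = 0.00653), with 91.0, 92.9 and 87.9 CPM in TPN and 271, 307 and 287 CPM in sham. E2f3 fell too (−0.57 ± 0.14, adjusted p = 0.036). Against starvation, Mxi1 was lower in TPN (−1.01 ± 0.25, adjusted p = 0.0443) and Ccng1, cyclin G1, higher (0.72 ± 0.16, adjusted p = 0.0363). In starvation against sham 0 genes of the mitotic and control lists passed by edgeR. An unadjusted p under 0.05 was found for 4 of the 55 and 8 of the 39, beside 3430 of the 14668 genes tested. A list of 47 other replication and repair genes had a median log2 fold change of −0.17 in TPN and −0.09 in starvation against sham. Without the pair, TPN had 14 of 56 other mitotic genes lower and 0 higher, 10 of 39 control genes lower and 3 higher, and 7 of 47 replication and repair genes lower and 1 higher, against 14.8% lower and 15.0% higher of all genes. In starvation 5, 7 and 3 genes of these lists were lower and 0, 2 and 2 higher, against 9.0% and 10.9% of all genes.

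The called members have neighbours that limit what their counts say. Ccnd1 shares 23.4% of its exon length with LTO1 on the opposite strand, and LTO1 was itself lower in TPN (−0.58 ± 0.12, adjusted p = 0.02) and starvation (−0.82 ± 0.12, adjusted p = 0.0129). Cdk4 shares 19.7% with Tspan31, which was lower in TPN (−0.73 ± 0.14, adjusted p = 0.0138). No step that marks the strand is named in the protocol, so the reads of such pairs cannot be told apart. In all, 17 members share exon bases with a gene on the opposite strand, 13 of them with a protein-coding gene, while Birc5 shares none. Ccnb1, Ccnb2, Ccnd3, Pcna and Tyms have pseudogenes named after them, which could take or lend reads.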

How the data were processed

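Bulk RNA-seq was measured in 9 jejunal libraries, grouped by their labels. The authors deposited raw counts per gene symbol. Per the submitters' processing notes, the tools were STAR 2.7.2e, featureCounts 2.0.0, cutadapt 2.9, FastQC 0.11.8 and DESeq2 1.32.0, and the builds GRCm38 and mm10. For annotation release, strand setting and multiply mapped reads, details were not given in the sources used here. A further 9 columns matched no sample and were not used. Libraries of a group always differed by more than sampling noise (chi-square per gene 8.04 to 126).

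From the counts, edgeR 4.0.16 (R 4.3.3) kept 14668 genes with filterByExpr, removed 7200, scaled by TMM and fitted group means by quasi-likelihood to all 9 libraries (6 residual degrees of freedom, biological coefficient of variation 0.314). Each comparison was a contrast, called at a Benjamini-Hochberg adjusted p under 0.05 over all genes tested. The SE is the size of the log2 fold change divided by the square root of F. CPM are TMM scaled, and 1 read was worth 0.0797 to 0.119 CPM. Mean log2 CPM used a prior count of 1. The test was tried on simulated data first. Positions, exon lengths and overlaps came from GENCODE M21 on GRCm38.

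The members and lists were chosen with earlier results of these data known. Named are members called in any comparison, the 2 of each class with the smallest p per comparison, Mki67, Pcna, Ccnd1, Ccnd2, Ccnd3, Myc and Cdkn1a, and up to 4 genes of each other list, of which some are not reported here. Cdk6, Mcm2, Mcm5, Mcm6, Mcm7, Ccne2, Cdc6, Cdt1, Ccnb2 and the members named from the fits without 2 libraries lie outside that rule and were picked after their values were seen. Alternatives were DESeq2 1.42.0, limma 3.58.1 voom, other scalings and filters, fits of only the groups compared, a replicate block, the smooth muscle list as covariate, a threshold of 0.01, each library left out, and 2 libraries left out together.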

Additional observations from a re-analysis of the deposited data

How the results depend on the processing

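Members called under 22 alternatives are counts out of 49, beside 2 in TPN against sham, 1 in starvation against sham and 0 in TPN against starvation. TPN against sham gave 1 with limma voom or no filter, 4 with only the groups compared, and 0 with upper quartile factors, library totals, epithelium scaling or adjusted p under 0.01. Starvation against sham gave 4 with DESeq2, 2 with the smooth muscle covariate, and 0 with library totals, epithelium scaling, only the groups compared or adjusted p under 0.01. Over all genes these settings called, in that order, 657, 87, 97, 32, 0 and 9 lower and 997, 123, 256, 505, 2 and 21 higher. The replicate block gave 0 member calls in every comparison, beside 353, 23 and 253 lower and 203, 48 and 133 higher of all genes. The numbers share no stated source: same-numbered libraries correlated in their deviations at −0.301 to 0.386, and a library correlated best with its own number in 2 of 18 checks. With 1 library left out, member calls ranged from 0 to 4 in TPN against sham and from 0 to 2 in starvation against sham. Over all genes, 125 to 1705 were lower and 83 to 1477 higher in TPN against sham. In starvation against sham, 10 to 794 were lower and 22 to 945 higher. Without sham replicate 2 and starvation replicate 3 together, the counts were 19, 15 and 2. The causes of these shifts were not tested.

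Ccnd1 in starvation and Cdk4 in TPN kept their call in 11 of 22 alternatives, and Birc5 in TPN in 9, each in 3 of 9 fits with 1 library left out. Their log2 fold changes stayed below 0 in all 22, at −1.76 to −0.98, −0.78 to −0.23 and −1.39 to −0.57, with adjusted p of 2.44e-04 to 0.253, 4.18e-04 to 0.624 and 3.73e-04 to 0.402. Leaving out sham replicate 1 or 3, any TPN replicate or starvation replicate 2 ended each of these calls. Of 3234 member values, 43 gained and 35 lost a call, no called value changed sign, and 264 uncalled ones did. The members' median stayed below that of all genes in 22 of 22 alternatives for both sham comparisons. Epithelium scaling moved the median of all genes by 0.41 in TPN and 0.35 in starvation, and library totals by 0.19 in TPN. Called genes that were lower made up 59.6% in TPN against sham, but 48.6% with upper quartile factors, 46.8% with library totals and 29.7% with epithelium scaling. They made up 30.9% in starvation against sham, against 5.96% with epithelium scaling and 45.7% without starvation replicate 3, and 66.7% in TPN against starvation, against 80.8% with epithelium scaling.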
